A study of Homo sapiens with 4 samples.

Results

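The genes described here are 7 genes of glycogen metabolism: the 3 glycogen phosphorylases PYGL, PYGB and PYGM, the glycogen synthase GYS1, the branching enzyme GBE1, the phosphoglucomutase PGM1 and the pyrophosphorylase UGP2. Spots were taken by the platform's gene symbol, which gave 6 spots, 1 each for PYGL, PYGB, PYGM, GYS1, GBE1 and PGM1, among 29640 spots that are not controls and 13000 genes that the spots could be named for. UGP2 had no spot under that symbol, so its expression is not analysed here. PYGL was picked by its ratio in DLD-1 on these same arrays, so every PYGL value from DLD-1 is a description without a test.

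Cells store glucose as glycogen, a branched polymer. UGP2 makes the activated sugar UDP-glucose from glucose 1-phosphate, GYS1 adds it to the growing chains and GBE1 makes the branches. The phosphorylases release glucose 1-phosphate from the chain ends, and PGM1 interconverts glucose 1-phosphate and glucose 6-phosphate, which links the store to glycolysis. PYGL is the form known from liver, PYGM the form of skeletal muscle and PYGB the form first described in brain; inherited loss of PYGL causes Hers disease and loss of PYGM causes McArdle disease.

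The treated groups were cells of DLD-1 and of HT-29, established lines from human colorectal cancers, after 96 h with 1 µM 5-aza-2'-deoxycytidine, a cytidine analogue that traps DNA methyltransferases so that methylation is lost as cells divide. Untreated cells of the same line were set against them. All grew in RPMI1640 with fetal bovine serum, and the treated cells had been plated 24 h before the drug. RNA of both conditions of a line was hybridised together on 2 two-colour oligonucleotide arrays, with treated RNA in Cy5 on array 1 and in Cy3 on array 2, which gives 4 arrays. No label names more than 1 culture per condition. The 2 arrays of a line therefore count as 1 replicate, the SD given with a line mean is that between 2 hybridisations, and the number of arrays limits the precision. The p-values below set the mean of the 2 lines against a spread pooled over genes, not against the gene's own spread between lines. In the main fit every gene of the set that was tested had the same SE of 0.22. The pooled spread comes only from these samples and may be technical. RNA came from whole cultures, so fewer expressing cells and less RNA per cell cannot be told apart.

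The sources used here do not settle which file channel holds treated RNA on array 2 of each line. Channel 2 was read as treated on all 4 arrays, a working reading. Its choice drew in part on which sign the probes of largest ratio shared, so agreement in sign between the arrays of a line is partly built in. The labels list the treated RNA of array 2 as the first channel, and the mean of each member under that order is given beside its main values. The authors' deposited ratios are channel 2 over channel 1 on every array. For array 2 they are thus treated over untreated only under the working reading. Across 21197 measured DLD-1 probes the log2 ratios of the 2 arrays had r = -0.41 under the working reading and 0.41 under the labels' order; for 22642 HT-29 probes r was 0.02 and -0.02. Probes are not independent replicates. A channel counted as above background where the spot exceeded its local background by more than 2 background SD, and a probe counted as measured in a line where at least 1 channel did so on both arrays. In untreated cells this limit was passed on both arrays by 8 of 10 colorectal epithelial markers in DLD-1 (CDX1 and LGALS4 did not) and 9 of 10 in HT-29 (CDX1 did not). It was also passed by 3 of 3 fibroblast markers in each line and by 5 of 5 liver markers in DLD-1 and 4 of 5 in HT-29, so the limit does not by itself separate expressed from silent genes.

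The drug lowers methylation at CG dinucleotides, so the sequences just upstream of the PYGL and PYGB starts are shown, PYGL as the member with the highest treated ratio and PYGB as its paralog. They are from RefSeq on GRCh38.p14, 250 bases each, written 5′ to 3′ on the gene's strand, with every CG in capitals. The PYGL stretch is chr14:50944484-50944733 on the minus strand and the PYGB stretch is chr20:25247835-25248084 on the plus strand.
PYGL: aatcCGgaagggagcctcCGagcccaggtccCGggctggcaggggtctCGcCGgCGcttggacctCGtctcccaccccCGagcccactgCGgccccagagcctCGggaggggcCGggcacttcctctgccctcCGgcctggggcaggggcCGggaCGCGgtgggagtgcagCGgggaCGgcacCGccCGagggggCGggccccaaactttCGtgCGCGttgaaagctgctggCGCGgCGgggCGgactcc
PYGB: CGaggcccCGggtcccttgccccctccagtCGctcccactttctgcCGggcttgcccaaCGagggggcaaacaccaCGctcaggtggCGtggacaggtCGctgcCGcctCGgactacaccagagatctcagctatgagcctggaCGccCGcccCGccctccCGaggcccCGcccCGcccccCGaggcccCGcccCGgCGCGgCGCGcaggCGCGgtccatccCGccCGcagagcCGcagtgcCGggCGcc

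These upstream stretches held 27 CG in PYGL and 30 in PYGB. Counted over the full 300-base window that RefSeq's table gives per start (250 bases before and 50 after), PYGL had 32 CG and PYGB 37, against a median of 14 over 35116 such windows, which puts them at percentiles 82.8 and 90.1. GBE1 had 31 and GYS1 26. UGP2 had 27 and 23 at its 2 starts, and PGM1 had 19, 40 and 3 at its 3 starts. The table matched 6 of the 7 genes; PYGM was not among them. The ratio of observed to expected CG was 0.74 for PYGL, 0.89 for PYGB, 0.82 for GBE1 and 0.72 for GYS1, against a median of 0.58 over all windows. By CG count GBE1 stood at percentile 81.1, GYS1 at 71.8 and the 3 PGM1 starts at 58.8, 93.3 and 24.5. Whether CG count goes with the treated ratio was not tested. The GC box (GGGCGG, either strand) was found 3 times in the PYGL window, 6 times in PYGB, 3 times in GYS1 and 2 times in GBE1, and 45.0% of all windows hold it. The TATA box (TATAAA, either strand) was found in GBE1 only, where 11.5% of all windows hold it, and the E box CACGTG (its own reverse complement) was found in none of the members' windows, where 7.26% of all windows hold it. Methylation of these windows was not measured in the files used here.

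**Figure D1:**
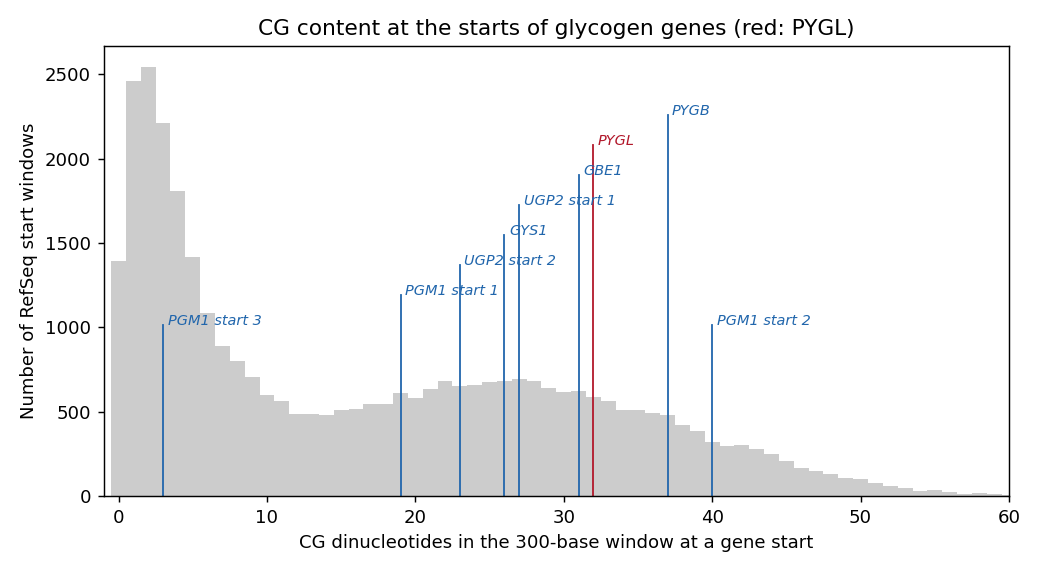
Number of RefSeq start windows (vertical axis) by the CG dinucleotides they hold in 300 bases (horizontal axis); vertical lines mark the windows of the glycogen genes, with line height set only to separate the names. PYGL with 32 and PYGB with 37 lie to the right of the median of 14.

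Under the working reading PYGL was higher in treated than in untreated DLD-1 cells, with untreated signal at background. On array 1 the PYGL spot had an intensity of 1558 scanner units in the treated channel, above its limit of 1094, and 452 in the untreated channel, below its limit of 875. On array 2 it had 1220 against a limit of 763 in the treated channel and 256 against 328 in the untreated channel. Treated signal was thus above background on 2 of 2 arrays and untreated signal on 0 of 2. With local background taken off, the spot stood at 1259 treated and 100.2 untreated units on array 1, and at 732 treated and 159 untreated units on array 2. PYGL entered the DLD-1 comparison through its treated channel alone.

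After background correction and loess normalization, the PYGL log2 ratio of treated over untreated was 1.72 on array 1 and 1.73 on array 2, a mean of 1.72 ± 0.01 (SD over 2 arrays). The arrays gave nearly the same ratio. This mean corresponds to 3.30-fold in treated over untreated DLD-1 cells. Untreated PYGL signal fell below its limit both times, so the size of this fold is uncertain, and it is not a lower bound. These ratios stood at percentiles 99.8 and 99.8 of the measured DLD-1 probes. The 616 spots of the printed block that holds the PYGL spot had median log2 ratios of 0.06 and -0.02 on the 2 arrays.

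The size and the direction of the PYGL ratio rest on choices that the arrays do not fix. Under the labels' channel order the ratios were 1.72 and -1.73, a mean of -0.01 ± 2.44 (SD). In that order the brighter PYGL channel was the Cy5 channel on both arrays. With local background simply subtracted the working mean was 2.78, and with no background correction it was 1.40. The authors' deposited table gives PYGL no value on any of the 4 arrays, because these spots were marked as not valid.

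In HT-29, PYGL was at or near background in both conditions. The treated and untreated channels stood 281 and 63.9 units above local background on array 1, and 267 and 305 units on array 2. Only the treated channel of array 1 was above its limit, by a small margin (intensity 423 against a limit of 390). The log2 ratio was 0.59 on array 1 and -0.15 on array 2, where neither channel was above background, so PYGL does not count as measured in HT-29 and no fold is given. The block median on array 2 was 0.45. Whether the 2 lines differ in their PYGL ratio was not tested, since each line is 1 replicate.

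**Figure D2:**
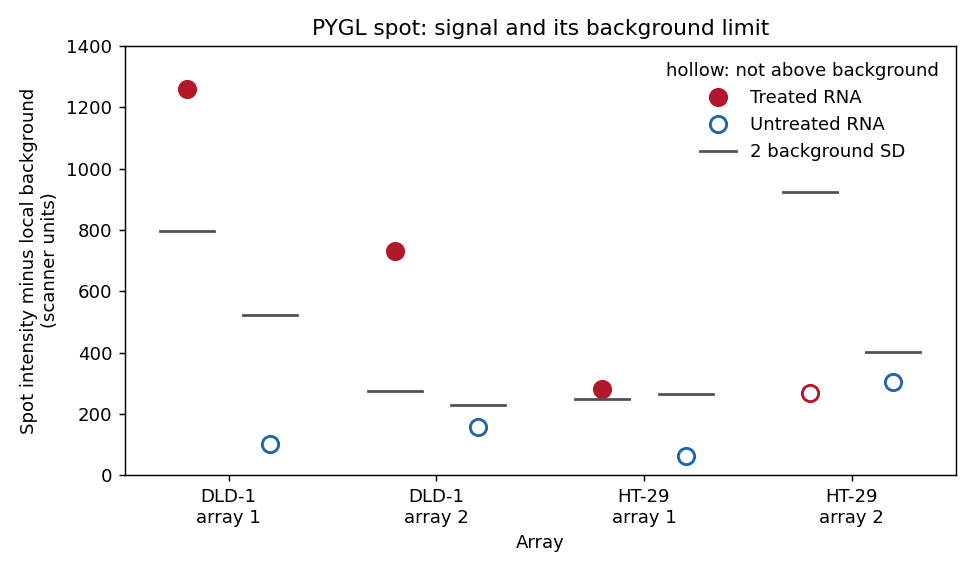
PYGL spot intensity minus local background in scanner units (vertical axis) for treated and untreated RNA on each array (horizontal axis); short lines mark 2 background SD and hollow points lie below them. Treated DLD-1 signal of 1259 and 732 units stands above its line on both arrays, while untreated signal lies below its line on all 4 arrays.

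On a common log2 scale across arrays (each channel after loess and quantile matching of average signal), and under the working reading, PYGL had a level of 10.29 ± 0.34 in treated DLD-1 cells and 8.57 ± 0.35 in untreated DLD-1 cells. In HT-29 it had 8.88 ± 0.95 in treated and 8.66 ± 0.42 in untreated cells (SD over 2 arrays throughout). Treated DLD-1 cells thus had the highest level, and the other 3 levels lay within 1 SD of each other. PYGL stood at percentiles 51.0 and 41.2 of all spots in treated DLD-1 cells, against 19.0 and 12.3 in untreated DLD-1 cells. The HT-29 percentiles were 30.8 and 11.0 in treated cells and 21.2 and 12.2 in untreated cells.

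The other phosphorylases stayed well under 2-fold in both lines, and their ratios differed in sign in DLD-1. PYGB, with both channels above background on all 4 arrays, had DLD-1 log2 ratios of 0.33 and 0.45 on arrays 1 and 2, a mean of 0.39 ± 0.09 or 1.31-fold. In HT-29 PYGB had -0.17 and 0.48, a mean of 0.15 ± 0.46. PYGB was thus above 0 on 3 of 4 arrays, with the HT-29 arrays on opposite sides. The authors' deposited table, under the working reading, has it above 0 on both HT-29 arrays (0.22 and 0.50, mean 0.36). The block medians around the PYGB spot were 0.30 and 0.02 on the DLD-1 arrays and 0.13 and 0.11 on the HT-29 arrays. With block medians set to 0 the PYGB means were 0.23 in DLD-1, 0.03 in HT-29 and 0.13 over both lines. Untreated PYGB on HT-29 array 1 was only just above its limit (intensity 476 against 471). In the labels' order the PYGB means were -0.06 in DLD-1 and -0.32 in HT-29.

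PYGM, also above background everywhere, had DLD-1 log2 ratios of -0.26 and -0.49, a mean of -0.38 ± 0.16. In HT-29 PYGM had -0.17 and 0.04, a mean of -0.07 ± 0.15. It was below 0 on 3 of 4 arrays. Its sign in HT-29 was not stable even under the working reading. The authors' deposited table then has 0.05 and 0.13 there (mean 0.09), and median centring gave a mean of 0.05. With block medians set to 0 the PYGM means were -0.33 in DLD-1 and -0.25 in HT-29. In the labels' order the PYGM means were 0.11 in DLD-1 and -0.11 in HT-29. Over both lines neither passed limma's test on the 2 line means, in which every member had the same SE of 0.22. By limma PYGB had a mean log2 ratio of 0.27 (95% interval -0.15 to 0.70, adjusted p = 0.988) and PYGM had -0.22 (interval -0.64 to 0.20, adjusted p = 0.988). In the labels' order the means over both lines were -0.19 for PYGB and 0.00 for PYGM.

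Set against each other within each array, the PYGL ratio exceeded that of PYGB by 1.39 and 1.28 on the DLD-1 arrays, a mean difference in log2 ratio of 1.33. It exceeded that of PYGM by 1.98 and 2.22, a mean of 2.10. Untreated PYGL was at background, so the sizes of both differences are uncertain. They were 1.07 and 1.76 with no background correction, and 2.28 and 3.20 with plain subtraction. PYGB exceeded PYGM by 0.59 and 0.95, a mean of 0.77 ± 0.25 (SD over 2 arrays), with both genes above background in both channels. These are differences of ratios, not of levels, and PYGL was picked for its ratio. Under the labels' order the 3 mean differences were 0.06, -0.12 and -0.18. In HT-29 PYGB exceeded PYGM by 0.00 and 0.43, a mean of 0.22 ± 0.30. For HT-29 no difference with PYGL is given, as PYGL was not measured there.

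Glycogen synthesis genes showed small ratios. GYS1, the synthase of muscle and most other tissues, had log2 ratios of -0.17 and -0.08 in DLD-1 (mean -0.13 ± 0.07) and -0.08 and -0.59 in HT-29 (mean -0.33 ± 0.36). Under the working reading it was below 0 on 4 of 4 arrays after loess, while the authors' deposited table has 0.05 on DLD-1 array 2. The block medians around its spot were -0.19, 0.28, -0.28 and -0.27. With block medians set to 0 the GYS1 means were -0.17 in DLD-1, -0.06 in HT-29 and -0.11 over both lines. Its mean over both lines of -0.23 did not pass limma (interval -0.65 to 0.19, adjusted p = 0.988), and in the labels' order it was 0.10 (DLD-1 mean -0.05, HT-29 mean 0.26).

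GBE1 had log2 ratios of 0.06 and -0.73 in DLD-1, where treated signal on array 2 was not above background (mean -0.33 ± 0.56). In HT-29 GBE1 had -0.14 and 0.74 (mean 0.30 ± 0.62). The arrays of each line lay on opposite sides of 0. The medians of the printed block around its spot were 0.22 and -0.36 on the DLD-1 arrays and 0.14 and 0.66 on the HT-29 arrays, the same sign as GBE1 on 3 of 4 arrays. With block medians set to 0 the GBE1 mean was -0.26 in DLD-1 and turned to -0.10 in HT-29. In the labels' order both line means changed sign, to 0.39 in DLD-1 and -0.44 in HT-29. Its mean over both lines was -0.01 (limma adjusted p = 0.998).

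PGM1 was above 0 on both DLD-1 arrays and below 0 on both HT-29 arrays. Its log2 ratios were 0.58 and 0.24 in DLD-1 (mean 0.41 ± 0.24) and -0.46 and -0.07 in HT-29 (mean -0.26 ± 0.27), with untreated signal above background on 1 of 2 HT-29 arrays. The mean over both lines was 0.07 (limma interval -0.35 to 0.50, adjusted p = 0.995). Under the working reading the authors' deposited table has 1.02 and 0.15 for PGM1 on the DLD-1 arrays. It has 0.04, above 0, on HT-29 array 2. In the labels' order its means were 0.17 in DLD-1 and -0.19 in HT-29. A difference between the lines was not tested.

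**Figure D3:**
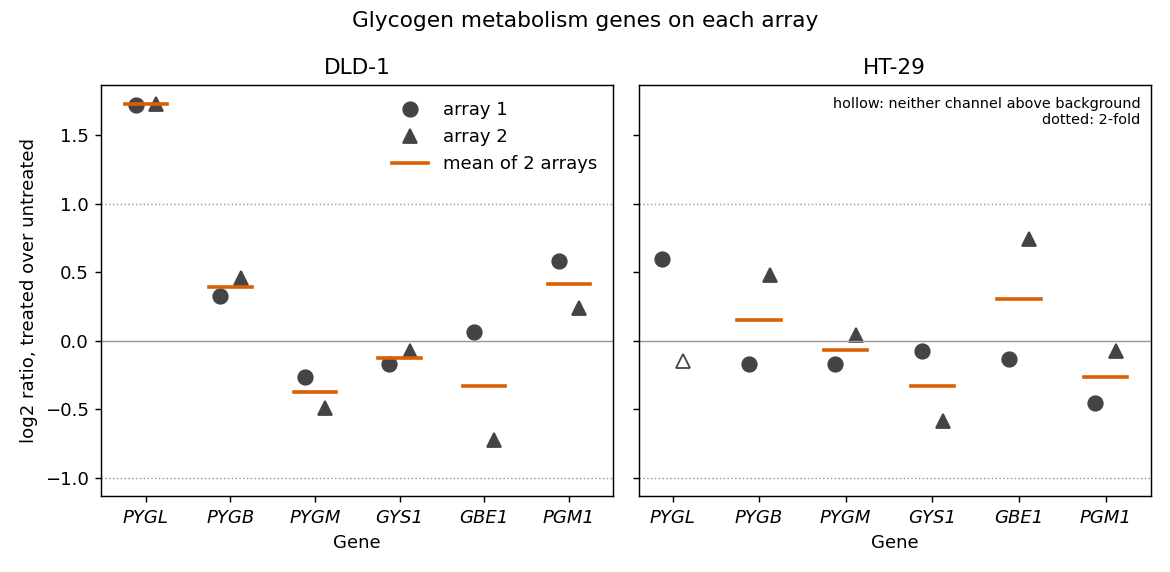
Log2 ratio of treated over untreated (vertical axis) for the 6 glycogen genes with a spot (horizontal axis) in DLD-1 and HT-29; circles mark array 1 and triangles array 2 of a line, bars the mean of the 2 arrays. PYGL in DLD-1 lies at 1.72 and 1.73, and no other point reaches the dotted lines at 2-fold.

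Counted over the set, 1 of 6 members measured in DLD-1 (PYGL) was at least 2-fold higher on both arrays, where 0.113% of measured probes were, and 0 of 6 were at least 2-fold lower, where 0.00944% were. The PYGL count follows from how the genes were picked. PYGL was likewise 1 of the 5 DLD-1 probes (0.0236%) with treated signal above background and at least 2-fold higher on both arrays and untreated signal above it on neither. Of the 5 members measured in HT-29, 0 were at least 2-fold higher, where 0.115% of probes were, and 0 were lower, where 0.0132% were. Above 0 on both DLD-1 arrays were 3 of 6 (PYGL, PYGB and PGM1) and below 0 on both were 2 of 6 (PYGM and GYS1), where 14.6% and 17.3% of probes were. Above 0 on both HT-29 arrays were 0 of 5 and below 0 on both were 2 of 5 (GYS1 and PGM1), where 27.9% and 28.5% of probes were. In the limma fit over both lines 0 of 5 members passed, where 0.231% of 9096 genes did, 17 up and 4 down, and 456 genes had an unadjusted p under 0.05. PYGL was not in that fit. In the labels' order 0 of 6 members were 2-fold higher or lower in DLD-1 on both arrays, where 0.368% and 0.0142% of probes were. In that order 0 of 5 were 2-fold higher in HT-29, where 0.305% were, and 0 of 5 passed over both lines, where 0.649% of genes did.

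**Figure D4:**
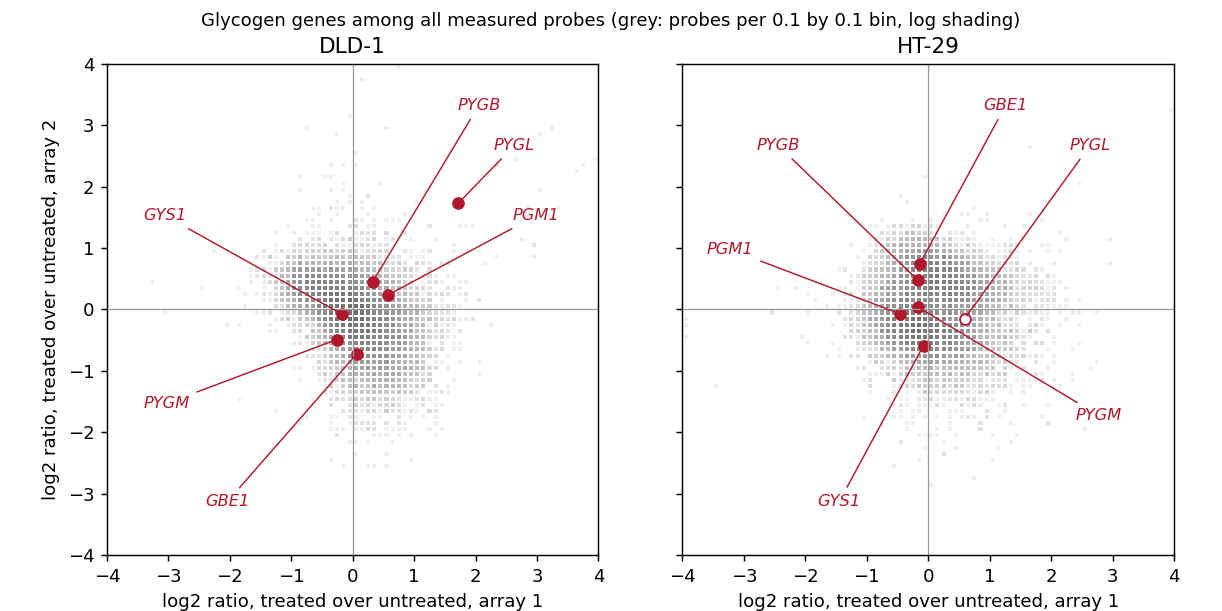
Log2 ratios of treated over untreated on array 1 (horizontal axis) and array 2 (vertical axis) of each line, with grey squares for all measured probes and red points for the glycogen genes; the hollow point is PYGL in HT-29, not above background on array 2. PYGL lies at 1.72 and 1.73 in DLD-1, while the other members lie within the grey cloud.

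The average signal of some members did not repeat between arrays that carried RNA of the same line. The average signal of the GBE1 spot stood at percentile 96.4 of all spots on DLD-1 array 1 and 22.4 on array 2, and 0.0660% of measured DLD-1 probes had a larger gap. PYGB stood at percentiles 69.6 and 26.7 on the DLD-1 arrays and 25.9 and 83.7 on the HT-29 arrays, where 3.90% and 3.70% of probes had a larger gap. The typical (median) gap was 11.4 percentile points in DLD-1 and 18.0 in HT-29. PYGL, with 33.6 and 24.8 in DLD-1, lay below the typical gap. The levels of GBE1 were 10.76 ± 2.94 in treated and 11.09 ± 2.38 in untreated DLD-1 cells, and those of PYGB were 10.70 ± 2.17 in treated and 10.55 ± 1.71 in untreated HT-29 cells. No order of lines can be read for GBE1 or PYGB from levels that spread this much. Conditions are compared by the within-array ratios above, not by these levels.

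Steadier levels were seen for GYS1, with 11.62 ± 0.48 in treated and 11.75 ± 0.54 in untreated DLD-1 cells and 11.00 ± 0.36 and 11.33 ± 0.00 in treated and untreated HT-29 cells. PYGM had 10.96 ± 0.71 and 11.33 ± 0.87 in treated and untreated DLD-1 cells and 10.05 ± 0.13 and 10.11 ± 0.28 in treated and untreated HT-29 cells. PGM1 had 10.06 ± 0.64 and 9.65 ± 0.40 in DLD-1, treated and untreated, and 9.43 ± 1.16 and 9.69 ± 0.89 in HT-29. Treated and untreated RNA shared each array, so these SDs of levels between arrays do not measure the spread of the treated over untreated ratio. That spread is the SD given with the ratios above.

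Regulators and further enzymes of glycogen metabolism were measured as a list of 31 genes, of which 25 had a probe and 22 entered the limma fit. None passed limma in either direction, where 0.187% of all genes passed as higher and 0.044% as lower. At such shares the count says little about so short a list. The median log2 ratio of the list was 0.02, and over all 9096 genes it was 0.01. The largest means were those of PPP1R2, an inhibitor of protein phosphatase 1 (mean 0.39, DLD-1 value 0.54, HT-29 value 0.24), PPP1R3C, which brings that phosphatase to glycogen (mean -0.36, DLD-1 value -0.19, HT-29 value -0.52), and PPP1CC, 1 of its catalytic subunits (mean 0.35, DLD-1 value 0.44, HT-29 value 0.26). The adjusted p was 0.988 for each. PPP1R2 was above 0 on 4 of 4 arrays (0.86, 0.22, 0.27 and 0.22), while PPP1R3C had -0.96 and 0.58 on the DLD-1 arrays, which lay on opposite sides of 0.

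Phosphorylase kinase switches the phosphorylases on, and its subunits, chosen for that role after their values were seen, did not pass either. PHKG2, the catalytic subunit known from liver, had a mean log2 ratio of 0.16 and PHKA2, the regulatory subunit of the liver form, -0.18. The muscle forms PHKG1 and PHKA1 had 0.09 and 0.15, and the shared subunit PHKB had -0.03. Also named after their values were seen, the liver synthase GYS2 had 0.03 and the glycogenins GYG1 and GYG2, which prime new chains, -0.23 and -0.24. The means of all 22 genes lay between -0.36 and 0.39.

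Genes that bring glucose in or release it formed a list of 14, all with a probe, of which 10 entered the fit. None of these passed limma in either direction, where 0.231% of 9096 genes did, so the count says little about so short a list. The list's median log2 ratio was -0.16 (DLD-1 median -0.18, HT-29 median -0.02), where all genes had 0.01. With DLD-1 array 2 left out, FBP1 had -0.77 over both lines and PPP1R3C, from the glycogen list, had -0.74. These were the list genes called under that setting, in which DLD-1 is 1 array. The array left out is the one on which both were above 0 in DLD-1. On DLD-1 arrays 1 and 2 FBP1 had -0.83 and 0.57, and PPP1R3C had -0.96 and 0.58. The largest means were those of FBP1, a gluconeogenic phosphatase (mean -0.42, DLD-1 value -0.13, HT-29 value -0.70), GPI, which interconverts glucose and fructose phosphates (-0.32), and SLC37A4, the glucose 6-phosphate carrier of the endoplasmic reticulum (-0.27), each with a limma adjusted p of 0.988. SLC2A1, the glucose carrier GLUT1, chosen after its values were seen, had 1.04 and 0.73 on the DLD-1 arrays and was not measured in HT-29. In the labels' order its ratio on DLD-1 array 2 changes sign, so its DLD-1 arrays then lie on opposite sides of 0.

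**Figure D5:**
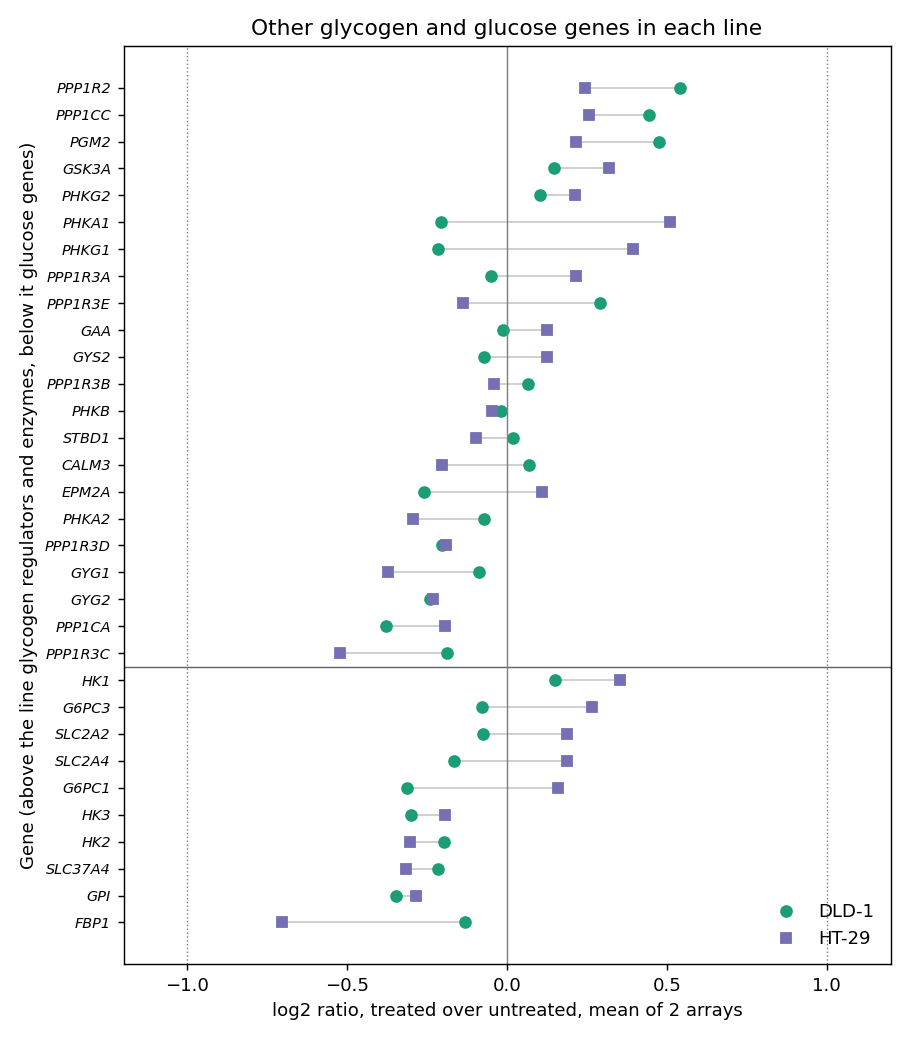
Mean log2 ratio of treated over untreated over the 2 arrays (horizontal axis) for 22 glycogen genes and, below the line, 10 glucose genes, with circles for DLD-1 and squares for HT-29. All points lie inside the dotted lines at 2-fold, from -0.70 for FBP1 in HT-29 to 0.54 for PPP1R2 in DLD-1.

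The genes nearest to PYGL were sought over the 3 arrays on which PYGL had a channel above background (both DLD-1 arrays and HT-29 array 1), as the Euclidean distance between log2 ratios among 9615 genes. MTERF1, a mitochondrial transcription termination factor, was nearest (distance 0.73, with 1.23, 1.34 and 0.21 against 1.72, 1.73 and 0.59 for PYGL). It was followed by TSPY1, a testis-expressed gene, at 0.78, the beta-adrenergic receptor ADRB3 at 0.86, the tropomyosin TPM2 at 0.93 and the WNT antagonist DKK1 at 0.99. Untreated DLD-1 signal of MTERF1 and DKK1 was above background on 0 of 2 arrays, as for PYGL. That of TSPY1 and ADRB3 was above it on 2 of 2, and that of TPM2 on 1 of 2. The likeness is a description over 3 arrays.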

How the data were processed

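The deposited scanner files give, per the file headers, linear intensity values for each spot in 2 channels, with local background and its SD; per the labels, TriZol total RNA was amplified to amino allyl aRNA and coupled to Cy3 or Cy5. The authors' deposited series table holds log2 ratios of channel 2 over channel 1, equal to the scanner files' ratios with the sign reversed, in the same channel order on every array. For the scanner and its software, the sources used here give no name.

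Values were recomputed in R 4.3.3 with limma 3.58.1: normexp background correction (offset 50) and 1 loess curve per array, without weight for control and bad spots. Of 30336 spots, 49 non-control spots marked bad on some array were left out. Median local background ran from 64.0 to 567 units per channel, and 22073 to 25787 probes per array had at least 1 channel above background. The platform annotation gave 14200 spots 1 gene symbol, 447 several and 14993 none, and 1394 more were named from their description. For dim probes the lowest signal of any spot counted as above background was set as a floor for the untreated level. Untreated PYGL in DLD-1 lay above that floor, so the floor left its fold at the measured value and gives no bound. For each of 9096 genes the means of the 2 lines were set against 0 with limma (lmFit, eBayes, two-sided), and p-values were adjusted by Benjamini-Hochberg with a threshold of 0.05. The scripts were tested on simulated data.

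The members and lists were chosen with earlier results of these data known. Named genes are all members, list genes at least 2-fold on both arrays of a line or past the test, the 3 with the largest absolute mean in each list, and the 5 nearest to PYGL; the phosphorylase kinase subunits, GYS2, the glycogenins and SLC2A1 were named outside this rule, after their values were seen. Alternatives covered channel order, background, normalization, deposited values, filters, probe choice and leaving out each array. Promoter windows are RefSeq's on GRCh38.p14. Expression of UGP2 was not analysed here, and 1 gene of the glycogen list is not reported here.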

Additional observations from a re-analysis of the deposited data

Results flagged for a closer look

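In 3 genes every DLD-1 array lay on 1 side of 0 and every HT-29 array on the other, and none of these differences between lines was tested. PGM1 had a mean log2 ratio of 0.41 in DLD-1 against -0.26 in HT-29, a gap of 0.67. Under the same working reading the authors' deposited table has it at 0.04 on HT-29 array 2. PHKA1, the muscle regulatory subunit of phosphorylase kinase, had -0.21 in DLD-1 and 0.51 in HT-29, a gap of -0.72. The liver synthase GYS2 had -0.07 in DLD-1 and 0.13 in HT-29, a gap of -0.20. Its side of 0 is uncertain, with 4e-04 on HT-29 array 1 and -0.03 on DLD-1 array 1. These 3 genes were among 39 probes of the glycogen and glucose genes measured on all arrays (7.69%), where 1398 of 18868 probes (7.41%) were split this way. In the labels' channel order none of the 3 is split, because the 2 arrays of each line then lie on opposite sides of 0.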

How the results depend on the processing

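Direction in DLD-1 rests on the reading of the dye-exchanged arrays. In the labels' channel order the PYGL mean was -0.0054 (1.72 as reported), PYGL minus PYGM -0.12, PYGL minus PYGB 0.0575, and PYGB minus PYGM -0.18 in DLD-1 and -0.22 in HT-29. Members 2-fold changed or switched on in DLD-1 were then 0 (1 as reported). That order called 59 genes (21), 78 DLD-1 (24) and 69 HT-29 probes (26) at least 2-fold higher and 18 (5) and 14 (4) switched on, with a glycogen list median of -0.0388 (0.0203), and it turned the means over both lines to 0.10 for GYS1, -0.0103 for PGM1, -0.19 for PYGB and 0.0037 for PYGM.

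Background and normalization moved sizes. Plain subtraction gave PYGL 2.78, PYGL minus PYGB 2.28, PYGL minus PYGM 3.20, 2 genes called, 55 DLD-1 and 56 HT-29 probes, 12 switched on in DLD-1 and PGM1 at -0.0172. No background correction gave 1.40, 1.07 and 1.76 for the same 3 PYGL values, 3 and 2 switched on, and GBE1 at 0.0587. Median centring gave PYGL 1.81, PYGL minus PYGB 1.46 and a glycogen median of 0.0554. Block medians at 0 gave PYGL 1.71, PYGL minus PYGB 1.47, 4 genes, 11 HT-29 probes, 3 and 2 switched on and a glycogen median of -0.0037.

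The deposited log2 values (12 genes, 16 HT-29 probes, glycogen median 0.0533) and the filter on both channels (11 genes, 9 DLD-1 and 15 HT-29 probes, glycogen median -0.0098) hold no PYGL value, so members changed or switched on were 0, and 0 probes were switched on in either line. A switched-on probe needs untreated signal not above background, so under the filter on both channels that 0 was fixed in advance. Without a filter there were 40 genes, 65 DLD-1 and 41 HT-29 probes, a glycogen median of -0.033 and a glucose median of -0.0226. The brightest probe per gene gave 0.0104 and -0.13 for the 2 medians and left the member ratios as they were.

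Leaving out 1 array at a time gave 5 (no HT-29 array 2) to 357 genes (no DLD-1 array 2), 24 to 625 DLD-1 and 26 to 1100 HT-29 probes, 5 to 257 and 4 to 456 switched on, 0 to 1 called in each list, medians of -0.04 to 0.0651 (glycogen) and -0.12 to -0.0151 (glucose), PYGL 1.72 to 1.73, PYGL minus PYGB 1.28 to 1.39, PYGL minus PYGM 1.98 to 2.22, and PYGB minus PYGM 0.59 to 0.95 in DLD-1 and 0.0027 to 0.43 in HT-29. The mean over both lines ran from 0.11 to 0.43 for PYGB (0.27 as reported) and from -0.36 to -0.10 for GYS1 (-0.23), farther from 0 when HT-29 array 1 and nearer to 0 when HT-29 array 2 was left out. It ran from -0.28 to -0.16 for PYGM (-0.22), from -0.23 to 0.20 for GBE1, positive when DLD-1 array 2 (0.18) or HT-29 array 1 was the one left out, and from -0.0228 to 0.17 for PGM1, negative when DLD-1 array 1 (-0.0125) or HT-29 array 2 was left out. A single array takes away the demand that both agree; the cause of the other changes was not tested. Over the 13 alternatives 0 of 61 member means over both lines passed limma (smallest adjusted p = 0.565). No paired analysis was possible because the labels give the arrays of the 2 lines no shared replicate number; treated and untreated RNA are already set against each other within each array. Signal at background limits PYGL in untreated DLD-1 cells and in HT-29.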
